A study of Mus musculus with 5 samples.

Results

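The genes of the SNARE fusion machinery, through which synaptic vesicles merge with the membrane of the nerve terminal, were followed in the developing mouse cerebellum. The set comprised Snap25, Stx1a, Vamp2, Napa, Napb, Nsf, Cplx1 and Rab3a. Members were picked by gene symbol for their role in fusion, with earlier results of these data known but with no value entering the rule: every probe of the deposited value table whose single symbol in the platform's probe annotation was 1 of these 8 genes was taken. This gave 8 genes of 773 named ones and 9 probes of 897 in all, with 1 probe for each gene except Napb, which had 2 (numbered 884 and 885 in the table) that are described separately. Total RNA of cerebellum had been hybridised to arrays at E18 (day 18 of embryonic life) and at P7, P14, P21 and P56 (7, 14, 21 and 56 days after birth), with 1 column of values per age that the labels describe as the mean of 2 array experiments. The sources used here do not give strain, sex, genotype, any treatment, or whether separate animals supplied the 2 experiments. The labels state that the study was to help in finding the genes that take part in building the cerebellum.

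Values were read as the percent of a probe's own highest age in each array experiment, averaged over the 2 experiments. This reading comes from the values: all 4485 lie between 0.01 and 100, 420 probes stand at exactly 100 at 1 age and 0 probes do so at more than 1. A percent therefore compares ages within a probe and never 2 genes. With 1 column per age no spread between samples can be computed, so no p-value is given and no size of a difference has a replicate check; precision is limited by how few arrays there were. The words rose and fell are kept for changes of at least 2-fold, and differences are given as log2 of the later over the earlier age. Values below 1%, of which the members have 1, were set to 1% before the log, so that folds against it are lower bounds. The median of all probes went down with age, with 84.5% at E18 and 42.0% at P56, and each member is also given relative to the median probe.

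In a nerve terminal, syntaxin 1A (Stx1a) and SNAP-25 (Snap25) sit on the plasma membrane and synaptobrevin 2 (Vamp2) sits on the vesicle. Their SNARE motifs zip into a tight helical bundle that pulls the membranes together. Complexin 1 (Cplx1) clamps and primes the partly assembled bundle, and the small GTPase Rab3A (Rab3a) marks vesicles that are to dock. After fusion the ATPase NSF (Nsf), which is recruited by the adaptors alpha-SNAP (Napa, present in most tissues) and beta-SNAP (Napb, mainly of brain), takes the spent bundle apart so that its proteins can be used again. In the cerebellum this machinery serves the synapses of granule, Purkinje and other neurons, most of which form after birth.

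The first comparison set P56, the adult, against E18. Of the 9 member probes 6 rose, namely Snap25, Cplx1, both Napb probes, Nsf and Napa, and 1 fell, Stx1a. Vamp2 and Rab3a stayed within 2-fold. Among all 897 probes 22.6% rose and 52.5% fell. With columns divided by their medians 8 member probes rose and 1 fell (all probes 30.3% and 16.4%), and with quantile normalization 7 rose and 1 fell (27.4% and 23.0%). Quantile normalization ranks the percents of different probes within a column, although a percent does not compare genes. Probes at exactly 100 share a rank, and their number differs by age (177 at E18 and 83 at P56). A value of 100% is thus not kept equal between ages, which limits this setting throughout. The median member difference was 1.62 (log2), against -1.07 for all probes. Because whole tissue was measured, more cells of a type and more RNA per cell cannot be told apart.

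Stx1a, the gene of the plasma membrane syntaxin, stood at 100% at E18, 59.3% at P7, 33.2% at P14, 0.60% at P21 and 3.66% at P56. It was highest in the embryo and lower at each next age up to P21. The fall from E18 to P56 was 27.3-fold (-4.77 log2, and -3.70 relative to the median probe), and 19 of the 897 probes, or 2.12%, fell by as much or more. From P14 to P21 the fall was at least 33.2-fold. When values under 20.4%, the 10th percentile of the table, were raised to it, this step was -0.70 and the difference from E18 to P56 was -2.29 (log2), and quantile normalization gave 9.70-fold for this step and 11.8-fold for the whole course, which was 13.6-fold with columns divided by their medians. The size of the fall thus depends on how low values are read and on the scale between columns.

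Snap25, the gene of the partner SNARE on the same membrane, stood at 18.8% at E18, 27.5% at P7, 73.8% at P14, 74.3% at P21 and 100% at P56. It was lowest in the embryo, where Stx1a was highest, and highest in the adult. It rose 5.32-fold from E18 to P56 (2.41 log2, 3.48 relative to the median probe), and 60 probes, or 6.69%, rose by as much or more. On the deposited scale its gain came in separate parts. Of the E18 to P56 difference in percentage points, 67.7% had been reached by P14 and 68.4% by P21. With quantile normalization the step from P14 to P21 was also small, at 0.0024 (log2), against 0.22 from P21 to P56. With columns divided by their medians these steps were 0.41 and 0.44 (log2), so no pause was seen. The pause from P14 to P21 thus depends on the scale between columns.

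Vamp2, the vesicle SNARE gene, stood at 37.9% at E18, 17.0% at P7, 42.5% at P14, 100% at P21 and 69.9% at P56. It was lowest at P7 and highest at P21. From E18 to P56 it differed by 1.85-fold (0.88 log2), within 2-fold, and by 1.95 relative to the median probe; with columns divided by their medians that difference was 3.72-fold. So the 3 core SNARE genes each had another age of highest value: E18 for Stx1a, P21 for Vamp2 and P56 for Snap25.

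**Figure D1:**
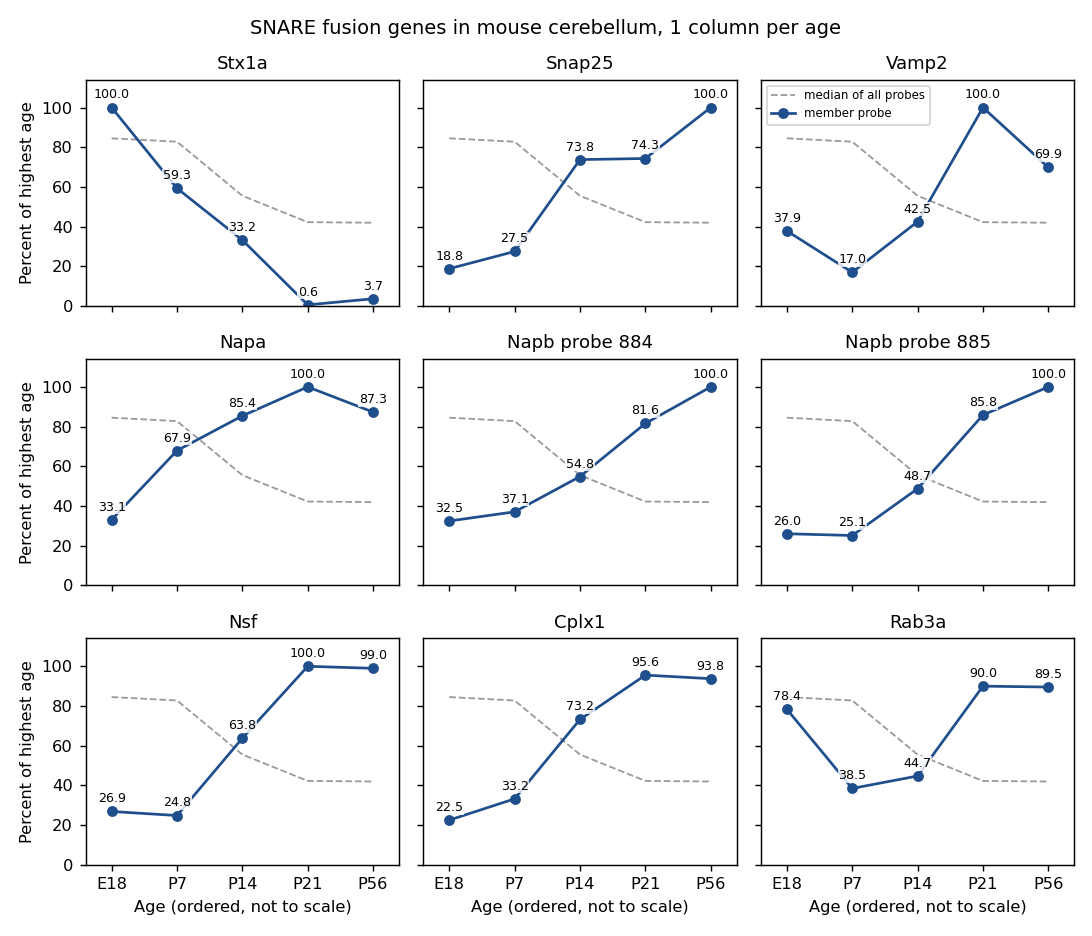
Values of the 9 member probes (percent of the probe's highest age, vertical axis) at the 5 ages (horizontal axis, evenly spaced and not to scale), with points joined by lines and 1 column per age, so that there are no error bars. The dashed line is the median of all 897 probes, which goes from 84.5% at E18 to 42.0% at P56; Stx1a goes down from 100% to 3.66%, while Snap25 goes up from 18.8% to 100%.

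Nsf, the gene of the ATPase that recycles SNAREs, stood at 26.9% at E18, 24.8% at P7, 63.8% at P14, 100% at P21 and 99.0% at P56. It was low at the earlier pair of ages and near its highest at the later pair, with P14 between. It rose 3.69-fold from E18 to P56 (1.88 log2, 2.95 relative to the median probe). Cplx1, the complexin gene, had nearly the same course, with 22.5% at E18, 33.2% at P7, 73.2% at P14, 95.6% at P21 and 93.8% at P56. It rose 4.16-fold (2.06 log2, 3.13 relative). The values at P21 and P56 were 1.03 percentage points apart for Nsf and 1.81 for Cplx1. That is less than the median gap of 6.64 points between the probes of a gene. This median was taken over the 14 genes with 2 probes at each of the 5 ages (70 gaps). It includes gaps that the scaling fixes at 0, such as that of Napb at P56, where both probes stood at 100%.

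Both adaptors of Nsf rose, by different courses. Napa, the alpha-SNAP gene, stood at 33.1% at E18, 67.9% at P7, 85.4% at P14, 100% at P21 and 87.3% at P56. Over the whole course it rose 2.64-fold (1.40 log2, 2.47 relative). It already stood high at P7, where 64.2% of its E18 to P56 gain in percentage points had been reached. Napb, the beta-SNAP gene, stood on probe 884 at 32.5% at E18, 37.1% at P7, 54.8% at P14, 81.6% at P21 and 100% at P56. Probe 885 gave 26.0%, 25.1%, 48.7%, 85.8% and 100% at the same ages. Both probes were low up to P7 and highest in the adult, and they rose 3.08-fold (1.62 log2, 2.69 relative) and 3.84-fold (1.94 log2, 3.01 relative). At P7, 6.84% of the gain had been reached on probe 884 and -1.20% on probe 885, and at P14 33.1% and 30.7%, where Napa had reached 96.5%. Napa was highest at P21, with 123% of its gain to P56, while Napb was highest at P56. Its shares would be smaller if taken to its own highest age.

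The pair of Napb probes gives a measure of error that the single columns cannot. They were 6.42 points apart at E18, 11.9 at P7, 6.10 at P14, 4.24 at P21 and 0 at P56, where both stood at 100%. That 0 follows from scaling each probe to its own highest age and is no sign of agreement. Such fixed gaps enter the measures below and make them smaller, for Napb and for any other gene whose probes share an age at 100%. As a root mean square over the 5 ages they differed by 6.91 points. Among the 14 genes of the table with 2 probes this difference ran from 3.02 to 27.3 points with a median of 8.84, and Napb had the fifth smallest. Their E18 to P56 differences were 0.32 apart (log2), against a median of 0.38 over the 14 genes, and they gave the same call in each of the 5 comparisons. Probes of a gene were read on the same arrays, so this leaves out variation between animals and between arrays.

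**Figure D2:**
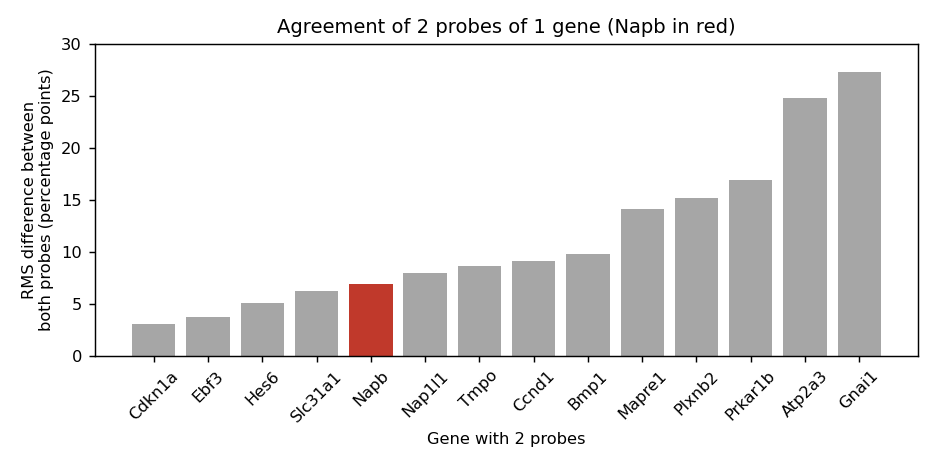
Root mean square difference over the 5 ages between the probes of each of the 14 genes that have 2 probes (vertical axis, percentage points; 1 bar per gene, in rising order). Napb, in red, stands at 6.91 points, and the genes run from 3.02 (Cdkn1a) to 27.3 (Gnai1).

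Rab3a, the vesicle GTPase gene, stood at 78.4% at E18, 38.5% at P7, 44.7% at P14, 90.0% at P21 and 89.5% at P56. It was high in the embryo and again from P21, and low at P7 and P14. E18 and P56 differed by 1.14-fold (0.19 log2), within 2-fold, and by 1.26 relative to the median probe; with columns divided by their medians the adult was 2.30-fold higher, and with quantile normalization 1.60-fold. The P21 and P56 values were 0.46 points apart, so no order between them is given.

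Where each of the experiments averaged in a column is bounded by 0 and 100, a gap of over 50 points between ages can only arise when both moved in that direction. For P56 against E18 this holds for 7 of the 9 member probes: Stx1a downward, and Snap25, Nsf, Cplx1, Napa and both Napb probes upward. Among all 897 probes it holds for 61.8%. The gap was 32.0 points for Vamp2 and 11.2 for Rab3a, which does not fix the direction in each experiment. Under the same reading a mean of exactly 100 requires that both experiments were highest at that age. Stx1a met this at E18, Vamp2, Napa and Nsf at P21, and Snap25 and both Napb probes at P56. The highest mean of Cplx1 was 95.6% and that of Rab3a 90.0%, both at P21, so for these genes the experiments had their highest values at different ages.

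Highest values stood at P21 or P56 for 8 of the 9 member probes, with Stx1a at E18. By the printed values 5 were at P21 and 3 at P56, but for Nsf, Cplx1 and Rab3a these ages were 1.81 points apart or less. No order between P21 and P56 is given for Cplx1 and Rab3a. For Nsf both experiments were highest at P21 under the reading above, though the means were only 1.03 points apart. Among all probes 8.58% were highest at P21 and 14.7% at P56, while 34.9% were highest at E18 and 33.6% at P7. Lowest values stood at E18 for 4 member probes (Snap25, Napa, Cplx1 and Napb probe 884) and at P7 for another 4 (Vamp2, Nsf, Rab3a and Napb probe 885), where 21.6% and 7.25% of all probes were lowest. Of these, Nsf and Napb probe 885 were only 2.03 and 0.89 points lower at P7 than at E18. The median member had a 4.03-fold range over the 5 ages, against 3.14-fold for all probes.

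From E18 to P7, 1 member probe rose, Napa, and 2 fell, Vamp2 and Rab3a; 5.80% of all probes rose and 2.79% fell. Napa rose 2.05-fold, Vamp2 fell 2.23-fold and Rab3a fell 2.04-fold, each close to the 2-fold line. Vamp2 fell 2.97-fold with quantile normalization and was within 2-fold (-0.89 log2) when values were raised to the 10th percentile. Stx1a differed by 1.69-fold downward, Snap25 by 1.46-fold and Cplx1 by 1.48-fold upward, and Nsf and the Napb probes by 1.14-fold or less. The median member difference was -0.05 (log2), against 0.05 for all probes. With quantile normalization Napa was 1.72-fold higher and Rab3a 1.86-fold lower, both within 2-fold, while Stx1a was 2.07-fold lower, and of all probes 4.91% rose and 6.58% fell; with columns divided by their medians Rab3a was 1.99-fold lower. No member differed by more than 50 points in this step, and only 3.34% of all probes did.

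From P7 to P14, 4 member probes rose and 0 fell, against 14.4% and 24.7% of all probes. Snap25 rose 2.68-fold, Nsf 2.57-fold, Vamp2 2.51-fold and Cplx1 2.20-fold. Napb differed by 1.48-fold and 1.94-fold upward on probes 884 and 885, Napa by 1.26-fold and Rab3a by 1.16-fold, while Stx1a was 1.79-fold lower. The median member difference was 0.96 against -0.58 for all probes. With columns divided by their medians, and with quantile normalization, both Napb probes were also past 2-fold, which makes 6 member probes, against 26.5% and 25.0% of all probes higher and 11.7% and 18.3% lower.

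From P14 to P21, 2 member probes rose, Vamp2 by 2.35-fold and Rab3a by 2.01-fold, and Stx1a fell; 3.23% of all probes rose and 13.2% fell. Within 2-fold, the Napb probes were 1.49-fold and 1.76-fold higher at P21 and Nsf 1.57-fold, while Snap25 stood at 73.8% and 74.3%. Vamp2 gained 57.5 points, which requires both experiments to have moved upward. Among all probes 3.68% differed by over 50 points in this step, in either direction. Columns divided by their medians put Nsf and Napb probe 885 past 2-fold as well, with 2.06-fold and 2.31-fold (all probes 6.80% higher and 5.69% lower), and a pseudocount of 1% in place of the floor left Vamp2 as the only riser.

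From P21 to P56 members went both ways, mostly within 2-fold. The single call was Stx1a, higher at P56 by at least 3.66-fold, which rests on 0.60% against 3.66%, or 3.06 points, and is 0 when values are raised to the 10th percentile. Among all probes 2.68% rose and 2.23% fell. Vamp2 was 1.43-fold lower at P56 (by 30.1 points, as 100% against 69.9%) and Napa 1.15-fold lower, while Snap25 was 1.35-fold higher (25.7 points) and the Napb probes 1.23-fold and 1.17-fold higher. The median member difference was -0.01 against 0.03 for all probes.

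**Figure D3:**
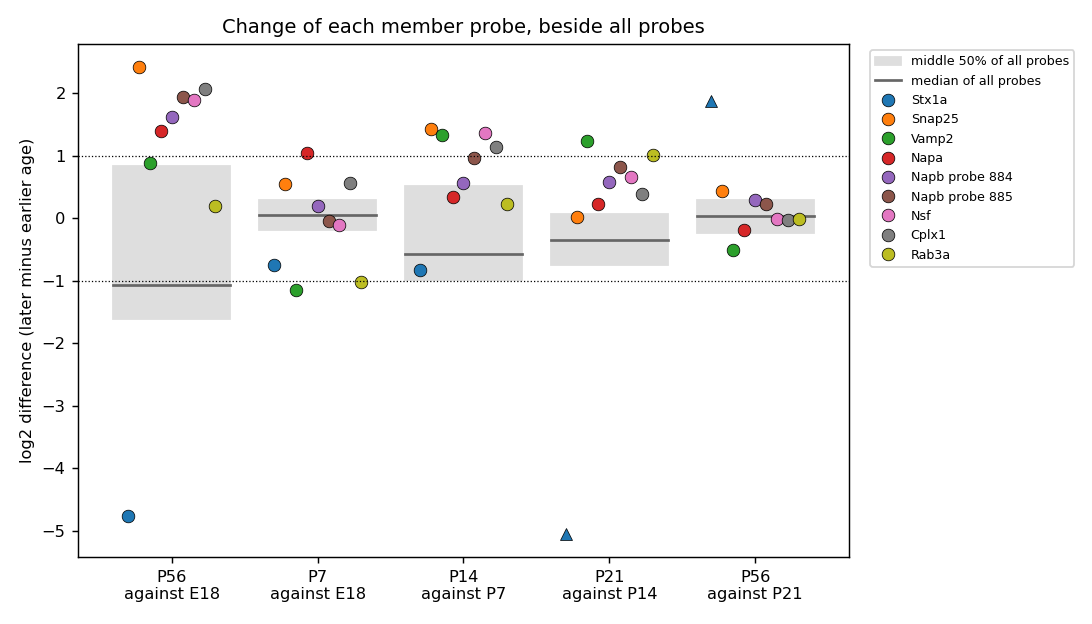
Difference of each member probe (log2, later minus earlier age, vertical axis) in the 5 comparisons (horizontal axis), with circles for measured values and triangles for lower bounds on the size of a change (Stx1a at P21). Grey boxes hold the middle 50% of all 897 probes with their median as a line, and dotted lines mark 2-fold; for P56 against E18 the member median is 1.62 and the median of all probes -1.07.

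Profiles were then set against each other by the root mean square difference over the 5 ages, in percentage points. Without Stx1a, the 28 pairs of member probes differed by 6.72 to 31.2 points with a median of 19.7, while the 8 pairs with Stx1a differed by 57.3 to 72.7. All pairs of probes in the table had a median of 30.9. Stx1a was set apart after its values had been seen, while no probe was left out of all pairs. The medians of 19.7 and 30.9 are therefore not like measures. Nsf and Cplx1 were the closest pair at 6.72 points, closer than the Napb probes to each other at 6.91. Napb was closer to Nsf (11.0 and 9.26 points on probes 884 and 885) than to Napa (21.9 and 26.8). Rab3a and Snap25 were the farthest apart of the members other than Stx1a, at 31.2 points.

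**Figure D4:**
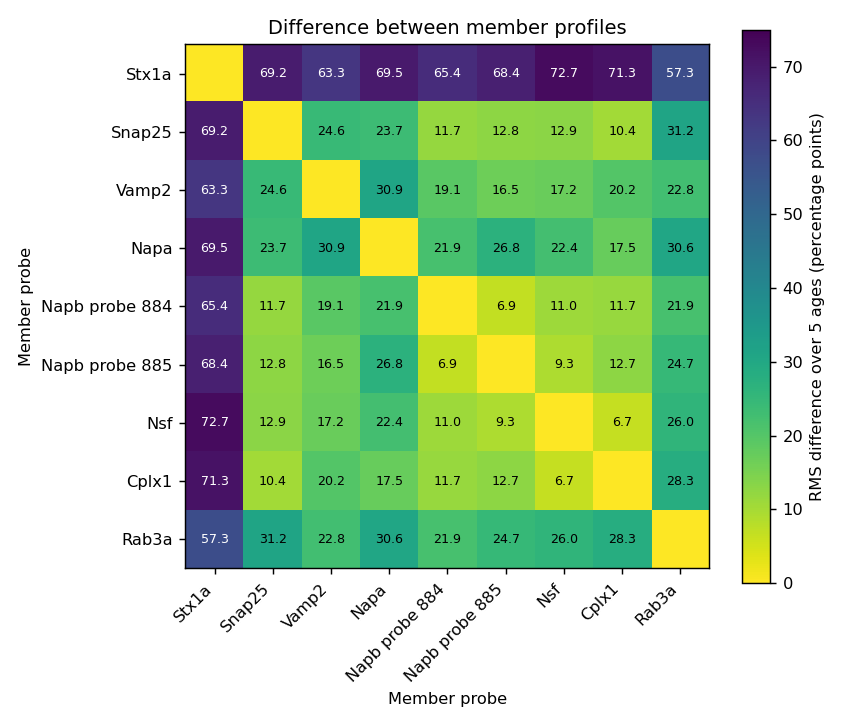
Root mean square difference over 5 ages between each pair of the 9 member probes, in percentage points (colour scale and printed values; each axis lists the member probes). Values with Stx1a lie between 57.3 and 72.7 points, and the lowest value is 6.72 points, between Nsf and Cplx1.

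Promoter sequences are shown for Stx1a, the member that fell, for Nsf and Cplx1, the closest pair of profiles, and for Napa and Napb, the adaptors with different courses. They come from a table of RefSeq promoters on build GRCm38.p6, in which 7 start sites of 6 member genes (Stx1a, Nsf, Cplx1, Napa, Napb and Rab3a) were matched, while Snap25 and Vamp2 were not matched, and span 250 bases before the annotated start to 10 bases from it onward, 5′ to 3′ on the gene's strand. Capitals mark matches on either strand to the GC box (GGGCGG), the cyclic AMP response element (TGACGTCA), its half-site (TGACG, which lies within the full element), an E-box (CAGCTG), the left part of the RE1 element (TTCAGCACC) or the initiation motif TATAAA.
Stx1a promoter, chr5:135023232-135023491, plus strand: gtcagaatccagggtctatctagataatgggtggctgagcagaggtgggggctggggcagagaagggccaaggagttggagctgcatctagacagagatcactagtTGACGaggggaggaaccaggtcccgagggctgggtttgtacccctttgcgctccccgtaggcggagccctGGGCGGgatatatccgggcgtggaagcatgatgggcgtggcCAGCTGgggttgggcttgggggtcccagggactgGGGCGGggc
Nsf promoter, chr11:103954047-103954306, minus strand: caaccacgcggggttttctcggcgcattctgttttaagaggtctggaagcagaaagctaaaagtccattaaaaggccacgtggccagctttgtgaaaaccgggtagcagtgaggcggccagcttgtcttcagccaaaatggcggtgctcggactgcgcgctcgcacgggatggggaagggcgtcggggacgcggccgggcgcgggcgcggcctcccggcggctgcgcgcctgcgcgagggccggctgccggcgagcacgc
Cplx1 promoter, chr5:108550018-108550277, minus strand: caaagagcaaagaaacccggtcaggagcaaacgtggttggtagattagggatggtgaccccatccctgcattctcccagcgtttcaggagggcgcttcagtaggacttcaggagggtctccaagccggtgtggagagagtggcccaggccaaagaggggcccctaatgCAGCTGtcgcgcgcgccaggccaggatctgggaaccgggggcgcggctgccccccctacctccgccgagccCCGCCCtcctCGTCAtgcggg
Napa promoter, chr7:16098330-16098589, plus strand: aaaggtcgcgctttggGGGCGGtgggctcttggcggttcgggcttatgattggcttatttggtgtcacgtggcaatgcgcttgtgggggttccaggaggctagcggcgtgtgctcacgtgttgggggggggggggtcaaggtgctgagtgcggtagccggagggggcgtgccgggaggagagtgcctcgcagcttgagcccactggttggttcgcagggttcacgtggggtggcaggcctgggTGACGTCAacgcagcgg
Napb promoter, chr2:148732411-148732670, minus strand: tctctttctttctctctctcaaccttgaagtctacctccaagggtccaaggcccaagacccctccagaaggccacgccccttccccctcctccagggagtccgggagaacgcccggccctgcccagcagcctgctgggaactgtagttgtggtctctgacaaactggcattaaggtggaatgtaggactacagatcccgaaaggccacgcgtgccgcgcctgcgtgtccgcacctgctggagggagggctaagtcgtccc

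The Stx1a window held 2 GC boxes, 1 half-site and 1 E-box, and the Cplx1 window 1 of each. In Napa a full cyclic AMP response element lay across the start, a match that 1.67% of all 32851 windows of this length held, and 1 GC box lay farther upstream. The Nsf and Napb windows held none of these motifs as spelled above. Other spellings of the E-box were not searched in any window, so the E-box counts are for CAGCTG alone. Over the 7 windows, GC boxes were in 4, half-sites in 4 and E-boxes in 3, against 33.4%, 18.8% and 13.5% of all windows; the initiation motif and the RE1 part were in 0, against 12.7% and 0.32%. The share of G and C ran from 58.8% to 66.5% with a median of 64.2%, against 52.3% for all windows. Stx1a and Cplx1, which moved in opposite directions, shared matches to the same kinds of motif, and a match is a description of letters and not a binding site.

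Other genes of vesicle release were taken from 5 lists of 109 genes in all, of which 6 had a probe with a single symbol. The list named calcium sensors of release, made up of synaptotagmins, had 4 of 12 genes measured. Whether each of them acts as such a sensor was not examined. From E18 to P56, 2 rose and 1 fell, beside 22.6% and 52.5% of all probes. With columns divided by their medians Syt11 was past 2-fold as well, beside 30.3% of all probes higher and 16.4% lower. Syt2 rose 33.6-fold, from 2.98% to 100%, and Syt3 rose 2.40-fold, from 37.6% to 90.3%. Syt5 fell 13.5-fold, from 100% at E18 to 7.39%, with 49.6% at P7, 14.6% at P14 and 8.88% at P21, so that it was highest in the embryo like Stx1a. Syt11 stood at 68.8% and 73.1% at E18 and P56. Slc32a1, the transporter gene that loads GABA and glycine into vesicles, was the 1 measured of 19 genes of the vesicle membrane and rose 2.85-fold, from 35.1% to 100%. The list of other SNAREs had 1 of 31 genes measured, Snap91, with 52.9% and 66.9%. With columns divided by their medians Snap91 was also past 2-fold upward (1.35 log2), beside the same 30.3% of all probes. It encodes a clathrin assembly protein of vesicle endocytosis and is no SNARE in spite of its symbol. The lists of chaperones, priming and docking factors (32 genes) and of the Rab3 cycle (15 genes) had 0 measured.

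For each member the probes of other genes with the most similar course were found by the same root mean square difference. Those nearest to Stx1a were Ptpn5, a phosphatase gene, at 6.91 points and D430019H16Rik at 6.98, both at 100% at E18. Nearest to Snap25 were Rad9b (4.31 points) and Zdhhc14 (4.88), and to Vamp2 Tyro3, a receptor kinase gene (8.24), and Sh3gl2, the endophilin A1 gene of vesicle endocytosis (9.19). Nsf was nearest to Snrk (3.96) and Cdh15 (4.47), and Cplx1 to Lcat (4.20) and Penk, the proenkephalin gene (4.22). Napa was nearest to Rnf103 (7.95) and Fbxw7 (8.17). Csrp1 was among the nearest to both Napb probes (4.75 and 3.31 points), with Peg3 (4.36) for probe 884 and Osbpl1a (5.99) for probe 885. Rab3a was nearest to 1 of the probes of Prkar1b, a protein kinase A subunit gene (8.23), and Syt11 (10.5). The probes of Prkar1b differed from each other by 16.9 points, so the likeness is to that probe and not to the gene. These likenesses rest on 5 columns that all probes share.

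Markers of the cell types in the tissue moved over the same ages, and their part in the members' changes was not tested. A percent of the highest age does not show how abundant a marker is, so the labelled tissue could be checked by course alone. For P56 against E18, 4 of 6 granule cell markers rose and 1, Pax6, fell, with the summed percent going from 153 to 434, and all 6 probes of 5 Purkinje cell markers rose, with the sum going from 89.9 to 519. The 4 oligodendrocyte and 3 astrocyte markers rose, with sums from 16.2 to 212 and from 25.7 to 222. These counts stand beside 22.6% of all probes that rose and 52.5% that fell. All 7 markers of dividing progenitors fell, with the sum going from 551 to 30.1. So did 5 of 6 of meninges and 2 of 2 of endothelium, with sums from 559 to 219 and from 186 to 39.0. Beside these, 52.5% of all probes fell. With columns divided by their medians Pax6 was within 2-fold, 3 of the 6 meningeal markers fell and 1, Ptgds, rose. Of the 2 endothelial markers 1 fell, and the counts of the other lists did not move. Under that scaling 30.3% of all probes rose and 16.4% fell. Ttr, of the choroid plexus, went from 100% to 62.9%, and of 2 microglial markers 1 rose, with the sum going from 110 to 149. No marker was at 0 at any age; the lowest values were 0.02%, for Gabrd at E18 and Ccna2 at P21.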

How the data were processed

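The authors averaged the signal of 2 array experiments per age before they deposited the values, per the labels, and the deposited values were read here as percent of each probe's highest age. The sources used here do not state how the arrays were scanned, corrected for background and normalized, or how probes were chosen. Names of probes are those of the platform's annotation and may be dated: 787 of 897 have 1 symbol, 16 several and 94 none, and all 9 member probes kept their symbol by gene identifier in RefSeq.

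Values under 1% were set to 1%, and log2 differences past 2-fold were called, without a test, as each age has 1 column. Counts of members are set beside the share of all 897 probes called. Members, lists and alternatives were chosen with earlier results of these data known, although the rule for members uses symbols alone. Named were all member probes, the other release genes past 2-fold for P56 against E18 (in lists with 5 or fewer measured genes, all), and the 2 nearest probes of other genes for each member probe; of the markers, those highest or lowest, plus the single choroid plexus gene and Pax6, added as the exception of its list. Python 3.11.15, pandas 2.3.3 and NumPy 2.4.6 were used, and the calculation was tested on simulated data.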

Additional observations from a re-analysis of the deposited data

How the results depend on the processing

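With 1 column per age no replicate could be left out, and no paired analysis was possible because each age has a single column. Of 110 counts and medians recomputed, 93 stayed within 1.5 times the count or within the median gap between probes of a gene, and 17 moved; no called difference turned its direction. With columns divided by their medians the median member difference was 2.63 for P56 against E18 and 1.53 for P14 against P7 (main values 1.62 and 0.96), 1 member fell from E18 to P7 (main 2) and 4 rose from P14 to P21 (main 2). With quantile normalization the medians were -0.47 for P7 against E18 (main -0.05) and 1.63 for P14 against P7, and 0 members rose from E18 to P7 (main 1). With a floor at the 10th percentile 1 member fell from E18 to P7, 0 fell from P14 to P21 (main 1) and 0 rose from P21 to P56 (main 1). The pseudocount of 1% left 1 riser from P14 to P21. At 1.5-fold 1 member fell from P7 to P14 (main 0) and 4 rose from P14 to P21. At 3-fold 0 rose and 0 fell from E18 to P7, 0 rose from P7 to P14 (main 4) and 0 rose from P14 to P21. For the changed folds, floor and pseudocount no share of all probes called is given. These counts therefore show only how the member calls moved, and not how members compare with other probes. Averaging the Napb probes moved none of the counts and medians, nor did using values without a floor, which was added after seeing the data. Among single probes 45 of 226 recomputed differences moved, 38 of them with the scalings between columns; the fall of Stx1a for P56 against E18 was -2.29 with the floor at the 10th percentile. Causes were not tested.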

Other observations

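A course that went down at P7 and came back was looked for after the values of Vamp2 and Rab3a had been seen. Of all probes, 25 fell 2-fold or more from E18 to P7, and 7 of these later stood 2-fold or more above their P7 value. Vamp2 and Rab3a were 2 of the 7. The others were Gadd45b (32.7% at E18, 16.0% at P7 and 89.6% at P14), Apod (63.9%, 25.7% and 38.6%), Jup (26.3%, 12.8% and 40.5%), Slc2a1, a glucose transporter gene (63.5%, 28.1% and 64.0%), and Nr4a1, an immediate early gene (17.8%, 7.59% and 71.1%). A narrower search asked for a fall past 2-fold from E18 to P7 and a rise past 2-fold from P14 to P21. It found 4 probes, Vamp2 and Rab3a among them. Both searches were shaped on the known values of these genes, so their place in either count was set beforehand. With a pseudocount of 1% the rise of Rab3a from P14 to P21 was within 2-fold (0.99 log2). The fall of Rab3a at P7 was within 2-fold under both scalings between columns (1.99-fold and 1.86-fold). That of Vamp2 stayed past 2-fold under both (2.19-fold and 2.97-fold). With the floor at the 10th percentile it was the fall of Vamp2 that was within 2-fold (-0.89 log2), while that of Rab3a was -1.03.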
